A study of Bos taurus with 9 samples.

Results

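The bovine miR-10, miR-99, miR-100 and miR-125 families were followed in extracellular vesicles (EVs) of follicular fluid across 3 stages of antral follicle growth. EVs are membrane-bound particles that cells release into fluid, and they carry small RNA, including microRNA (miRNA) of about the length of the loci described here. Members were the loci of the study's list of known miRNA that carry a bta- name (Bos taurus) for miR-10a, miR-10b, miR-99a, miR-99b, miR-100, miR-125a or miR-125b, on any arm of the hairpin. They numbered 9 of the 249 known and homologous miRNA loci of that list, and the whole deposited table holds 101889 loci. Ovarian tissue came from cows, follicles were grouped as small (3 to 5 mm), medium (6 to 9 mm) or large (over 9 mm), and the fluid of 1 size was pooled on a collection day, so each of the 9 libraries (3 per size) is the EV RNA of a pool of many follicles and no treatment was applied. Libraries are named below by the numbers in their labels, small 1, 2 and 4, medium 5, 6 and 8, and large 10, 11 and 12. The study made 3 collections, and each gave fluid of all 3 sizes, so pools of different sizes can share a collection. The labels do not say which pools do. The tests therefore treat the 9 libraries as independent, and p-values measure the spread between these pools.

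miRNA are cut from hairpin precursors that give a 5p and a 3p arm, and the loaded arm guides a silencing complex to messenger RNA that pairs with its first bases. The miR-10, miR-99 and miR-100 miRNA are related in sequence, and the miR-10 genes lie among the HOX genes, which set position along the body axis. miR-125a and miR-125b are vertebrate relatives of lin-4, the first miRNA described in the nematode, and they are known for repressing LIN28 and pro-apoptotic genes. In mammals a miR-125a or miR-125b gene, a let-7 gene and a miR-99 or miR-100 gene sit together in clusters, and members of all these families are expressed in ovarian granulosa cells.

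On the UMD3.1 genome, with coordinates as deposited, bta-miR-10a lay at chr19:38549275-38549296 on the plus strand and bta-miR-10b at chr2:20797664-20797685 on the minus strand. In the RefSeq annotation of the ARS-UCD2.0 assembly, used here for names and neighbours only, MIR10A lies within the span of HOXB3 and MIR10B within that of HOXD4. The remaining members formed 3 clusters. On the minus strand of chromosome 1, bta-miR-125b (chr1:19881398-19881419) was followed after 49091 bases by let-7c and then by bta-miR-99a-3p (chr1:19931194-19931216) and bta-miR-99a-5p (chr1:19931232-19931253), between the genes CXADR and USP25. On the minus strand of chromosome 15, the second bta-miR-125b locus (chr15:33298867-33298888) lay 54548 bases from bta-miR-100 (chr15:33353437-33353458), with a let-7a-5p locus between them and SORL1 and UBASH3B on either side. On the plus strand of chromosome 18, bta-miR-99b (chr18:58014874-58014895), let-7e and bta-miR-125a (chr18:58015549-58015572) lay within a short stretch, with 653 bases between bta-miR-99b and bta-miR-125a, and MIR125A overlaps SPACA6. The members were 22 bases long except bta-miR-99a-3p at 23 and bta-miR-125a at 24 bases. All 8 hairpin genes were matched by name in RefSeq.

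A normalized count here is the read count of a locus as CPM (counts scaled to a common library size) over the 249 known and homologous loci, normalized by the trimmed mean of M-values (TMM). The members are all 22 to 24 bases long, about the length of a read, and their levels are compared as CPM without a length correction. Reads were amplified by PCR and are not independent molecules, and amplification or ligation can differ between sequences. The 4 families differed widely in level. Ranked among the 249 loci by the mean share of the miRNA counts in the libraries of a size, bta-miR-10b was at rank 1 in small and rank 2 in medium and in large follicle EVs, with mean shares of 10.4%, 5.92% and 5.47%. bta-miR-99b stood above bta-miR-125a in small follicle EVs (ranks 38 and 49), whereas bta-miR-125a stood above bta-miR-99b in medium (ranks 29 and 33) and in large ones (ranks 21 and 32). bta-miR-99a-5p was at ranks 82, 76 and 64 and bta-miR-10a at ranks 87, 86 and 94 in small, medium and large follicle EVs. bta-miR-125b of chromosome 1 was at ranks 128, 103 and 79, and bta-miR-100 (149, 154 and 128) and bta-miR-99a-3p (163, 165 and 168) were the least abundant members in small follicle EVs.

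The bta-miR-125b loci held 5085 counts on chromosome 1 and 5041 on chromosome 15. They carry the same mature miRNA name, and their counts had a ratio of 0.944 to 1.17 in the 9 libraries (chi-square 6.99, 8 degrees of freedom, p = 0.538, which covers counting error only). The study's methods give no rule for reads that map to several places, so how many reads came from which bta-miR-125b gene is uncertain, like counts at both would also follow from dividing shared reads, and the pair is not independent evidence.

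Summed counts on all deposited loci ranged from 8941598 to 14664460 per library, but the counts that fell on the known and homologous miRNA loci did not stay level. They made up 14.1% to 26.9% of all counts in small, 3.75% to 11.2% in medium and 1.43% to 5.65% in large follicle EVs. Medium 8 and large 12 stood above the other libraries of their size, where the shares were 3.75% and 3.88% in medium and 1.43% and 1.58% in large follicle EVs. The large follicle libraries thus rest on 146617 to 660594 miRNA counts against 1257402 to 3394554 in small follicle EVs, and a floor of 3 counts is 0.00205% of the miRNA counts in the shallowest library. Such floors cover counting error only.

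Between large and small follicle EVs, bta-miR-125a and bta-miR-125b rose and bta-miR-10b fell relative to the known and homologous miRNA loci. Against all deposited loci the miR-125a and miR-125b values turn to lower in large follicle EVs. Under the total count of the libraries the log2 fold changes were -1.04 for bta-miR-125a and -0.94 and -0.86 for the bta-miR-125b loci, none of them past the threshold. By TMM over all deposited loci they were -2.66 (edgeR quasi-likelihood FDR 0.0302), -2.59 (FDR 0.0473) and -2.52 (FDR 0.0534). That scaling called bta-miR-125a and bta-miR-125b of chromosome 1 lower, among 232 of the 249 loci of the list. On the miRNA scale bta-miR-125a was 3.43-fold and the bta-miR-125b loci 4.00-fold and 4.17-fold higher in large follicle EVs, whereas bta-miR-10b was 1.92-fold lower. Fewer EVs of a given origin and less of a miRNA per EV cannot be told apart in such pools. The 5 other members, bta-miR-10a, bta-miR-99a-5p, bta-miR-99a-3p, bta-miR-99b and bta-miR-100, did not pass the test. The test was edgeR's quasi-likelihood test on the counts in 1 fit of the 3 sizes, with a false discovery rate (FDR) adjusted over all 249 loci and called under 0.05. Of the 249 loci 42.2% were called, 17.7% as higher and 24.5% as lower, so 4 of 9 is near the background share. The 4 called members were also those with an unadjusted p under 0.05 (50.2% of the list), and 5 members, these and bta-miR-100, had no overlap between the sizes (53.0% of the list). The median log2 fold change was 0.56 over the members and -0.18 over the list.

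bta-miR-125a, which lies in the chromosome 18 cluster, had normalized counts of 2993, 5270 and 4233 in small, 6305, 7174 and 9499 in medium and 10490, 15751 and 16620 in large follicle EVs. No value of one size overlapped that of another, and each larger size stood above the last. The means were 4165 ± 1140, 7659 ± 1652 and 14287 ± 3317 (SD, n = 3 each). The log2 fold change of large over small was 1.78 with a standard error of 0.35 and a 95% interval from 1.02 to 2.54 (edgeR quasi-likelihood FDR 0.00288).

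bta-miR-125b of chromosome 1 had normalized counts of 337, 336 and 350 in small, 733, 522 and 645 in medium and 948, 1684 and 1468 in large follicle EVs. The small follicle pools lay closely together (341 ± 8.08, SD, n = 3), and the spread widened in medium (633 ± 106) and in large (1367 ± 378) follicle EVs without any overlap between sizes. The log2 fold change of large over small was 2.00 with a standard error of 0.33 (edgeR quasi-likelihood FDR 0.00100). The chromosome 15 locus read 317, 329 and 359 in small, 702, 444 and 651 in medium and 920, 1719 and 1555 in large follicle EVs, for a log2 fold change of 2.06 with a standard error of 0.35 (edgeR quasi-likelihood FDR 0.00114). With any single library left out, the log2 fold change of large over small stayed between 1.83 and 2.29 for these loci and between 1.59 and 1.98 for bta-miR-125a, and each fit passed the threshold.

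bta-miR-10b, the most abundant member, had normalized counts of 109251, 100309 and 114531 in small follicle EVs. It read 50290, 55291 and 63956 in medium and 43985, 61404 and 63065 in large follicle EVs. All small follicle pools lay above all others, and the medium and large pools overlapped. The means were 108030 ± 7189, 56512 ± 6914 and 56151 ± 10569 (SD, n = 3 each), and the log2 fold change of large over small was -0.94 with a standard error of 0.30 (edgeR quasi-likelihood FDR 0.0269).

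The bta-miR-10b call was close to the threshold and was lost in several fits that left out a library. Its log2 fold change stayed between -1.04 and -0.79 in all such fits. The call was lost without small 1 (log2 fold change -0.94, FDR 0.0805), small 4 (-0.79, FDR 0.0949), large 10 (-0.80, FDR 0.0792) or large 11 (-1.01, FDR 0.0645), and over every alternative tried its FDR ran from 0.000246 to 0.0949. Of the 249 loci, 63, 83, 99 and 69 were called in these fits, against 105 in the main fit. The fits that kept the call had 88 to 105. Its partner bta-miR-10a, from the HOXB cluster, had values of 1321, 749 and 1224 in small, 1624, 636 and 876 in medium and 909, 831 and 759 in large follicle EVs, which overlap between all sizes. The log2 fold change of bta-miR-10a was -0.40, with a 95% interval from -1.25 to 0.45.

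**Figure D1:**
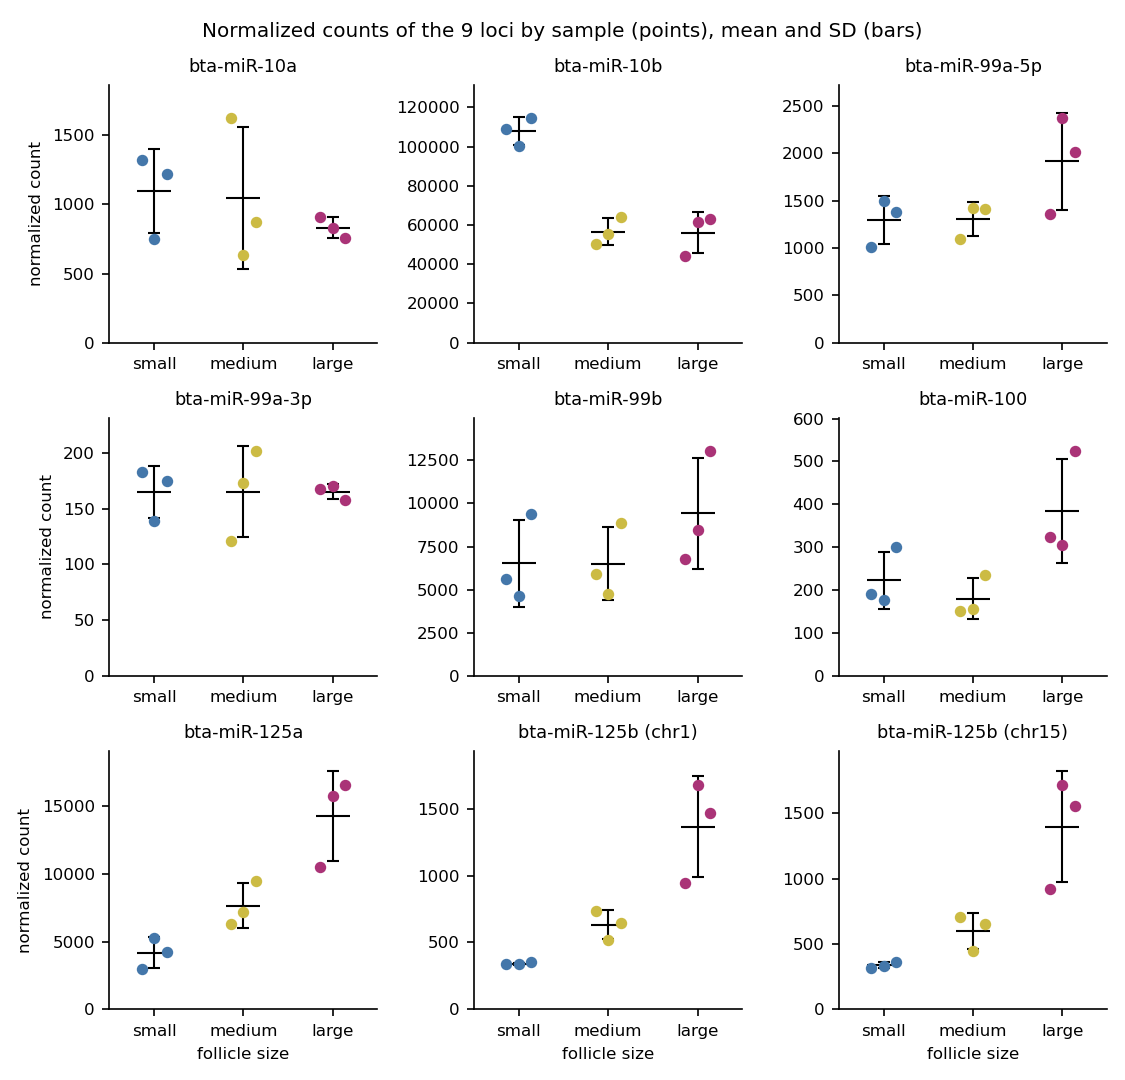
Normalized counts (CPM over the known and homologous miRNA loci, TMM-scaled, vertical axes from 0) of each of the 9 loci against follicle size, with a point per library and bars for the mean and SD of 3 libraries. bta-miR-125a and both bta-miR-125b loci climb from size to size without overlap, bta-miR-10b lies higher in the 3 small follicle libraries than in the others, and bta-miR-99a-3p averages 165 in each size.

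bta-miR-99a-5p, bta-miR-99b and bta-miR-100, known as repressors of MTOR and the IGF1 receptor, had higher means in large than in small follicle EVs. None of them passed the threshold, and bta-miR-99a-3p averaged 165 in both sizes. bta-miR-100 had normalized counts of 191, 177 and 299 in small, 150, 155 and 235 in medium and 323, 305 and 524 in large follicle EVs. Its large follicle values lay above all others, although large 11 exceeded small 4 by little, and the log2 fold change of large over small was 0.80 with a standard error of 0.38 (edgeR quasi-likelihood FDR 0.109).

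bta-miR-99a-5p read 1016, 1497 and 1383 in small, 1096, 1419 and 1409 in medium and 1361, 2373 and 2015 in large follicle EVs. bta-miR-99b read 5594, 4625 and 9380 in small, 5929, 4741 and 8852 in medium and 6804, 8462 and 13023 in large follicle EVs. The sizes overlapped for both, with log2 fold changes of 0.56 (95% interval -0.14 to 1.26) and 0.53 (95% interval -0.33 to 1.39). The other arm of the first hairpin, bta-miR-99a-3p, averaged 165 ± 23.3 in small follicle EVs, 165 ± 40.8 in medium and 165 ± 6.83 in large ones (SD, n = 3 each), and its log2 fold change was -0.01 with an interval from -0.77 to 0.75.

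Between medium and small follicle EVs, no member was called, and the test called 0.0% of the 249 loci. At an unadjusted p under 0.05 the edgeR test gave 4 members, against 17.7% of the list, and these 4 were the loci whose sizes did not overlap, against 28.5% of the list. bta-miR-10b was lower in medium follicle EVs by a log2 fold change of -0.93 (edgeR quasi-likelihood FDR 0.115), bta-miR-125a differed by 0.88 (FDR 0.184) and the bta-miR-125b loci by 0.89 (FDR 0.144) and 0.84 (FDR 0.207). DESeq2 called these 4 members, 3 as higher and 1 as lower, among the 28 of 249 loci it called (19 higher and 9 lower), with bta-miR-10b at an adjusted p of 0.0158, whereas edgeR's exact test called 0 members. The median log2 fold change was -5.5e-05 over the members and -0.17 over the list.

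Between large and medium follicle EVs, the bta-miR-125b loci were the members called, both higher in large, with log2 fold changes of 1.11 (standard error 0.32, FDR 0.0478) and 1.22 (standard error 0.34, FDR 0.0446) by edgeR's quasi-likelihood test. In this comparison 10.4% of the list was called, 5.62% as higher and 4.82% as lower in large. An unadjusted p under 0.05 was found for 4 members and 32.1% of the list, and 4 members had no overlap between the sizes, against 36.1% of the list. These calls were close to the threshold. They were lost in 8 of the 9 fits that left out a library, every one but that without large 10. Of the 249 loci, 0 to 24 were called in these 8 fits and 20 without large 10, against 26 in the main fit. Over those 9 fits the log2 fold change of the chromosome 1 locus ran from 0.93 to 1.31 and its FDR from 0.0371 to 0.149. bta-miR-100 differed by 1.10 (edgeR quasi-likelihood FDR 0.0740) and bta-miR-125a by 0.90 (FDR 0.0899), and DESeq2 called both of these and both bta-miR-125b loci among 63 of 249 loci (31 higher and 32 lower). bta-miR-10b differed by -0.01 with a 95% interval from -0.66 to 0.64. For any difference among the 3 sizes, 33.7% of the list was called, and bta-miR-10b (FDR 0.0351), bta-miR-125a (FDR 0.00856) and the bta-miR-125b loci (FDR 0.00255 and 0.00264) were the 4 members called by edgeR's quasi-likelihood test. The 3 comparisons share libraries, and their values are therefore not independent of each other.

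**Figure D2:**
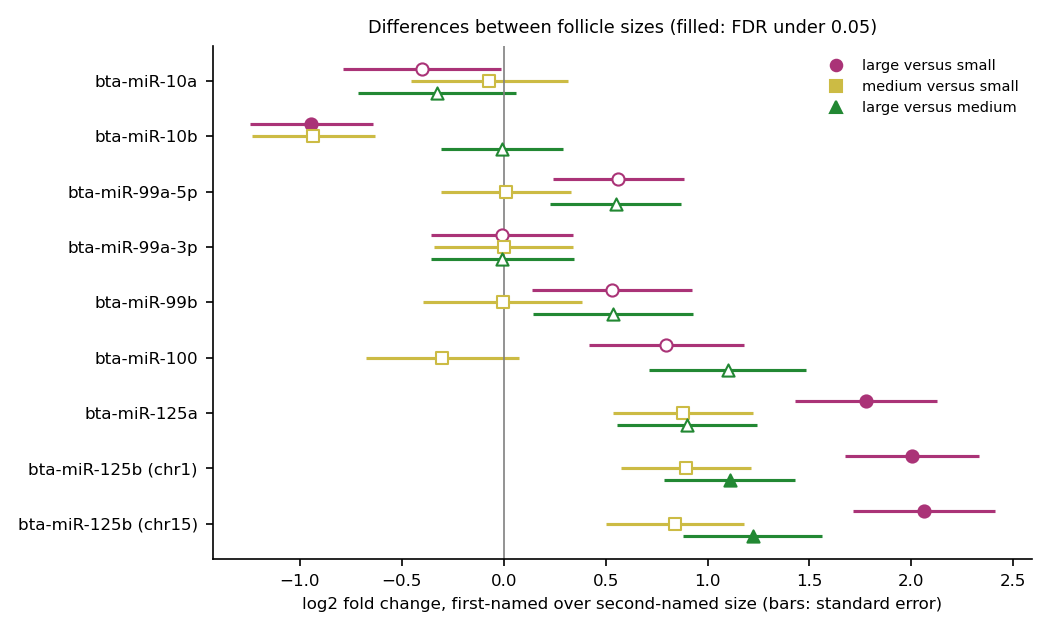
Log2 fold change (horizontal axis) of each member for the 3 pairs of follicle sizes, with bars for the standard error and filled symbols where the FDR was under 0.05. For large versus small follicle EVs the bta-miR-125a and bta-miR-125b loci lie between 1.78 and 2.06 and bta-miR-10b at -0.94, and no symbol is filled for medium versus small.

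As the miRNA share of the libraries was lowest on average in large follicle EVs, the same counts were also expressed as CPM over all deposited loci. On that scale the mean of each of the 9 members was below that of small follicle EVs in large follicle EVs. The list as a whole fell from a mean of 21.4% of all counts in small to 2.89% in large follicle EVs. Lower values on this scale are therefore not particular to the members. bta-miR-10b went from 22781 ± 8975 in small through 3827 ± 2864 in medium to 1568 ± 1283 in large follicle EVs (SD, n = 3 each), which is 14.5-fold lower, and bta-miR-10a was 11.1-fold lower. bta-miR-125a went from 833 ± 269 to 405 ± 346, and its single values of 664, 692 and 1144 in small overlapped the 193, 217 and 804 of large follicle EVs. The bta-miR-125b loci were 1.91-fold and 1.82-fold lower in the mean, again with overlap, and large 12 supplied the highest large follicle value of each.

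The direction of the members thus depends on what they are measured against. With library totals over every deposited locus as the scale, 0 members were called higher and 5 lower in the large over small comparison, where 1 of the 249 loci was called higher and 191 lower. By TMM over the known, homologous and predicted miRNA loci together, 0 members were called higher and 6 lower, beside 1 and 217 of the list, and by TMM over all deposited loci 0 and 8, beside 0 and 232 of the list. These scalings moved the median log2 fold change of the list from -0.18 to -3.06, -3.60 and -4.71. A change of scaling moves all loci by about the same amount, so the distance of a member from that median is nearly set by construction and is given as a description. bta-miR-125a lay 1.96 above it in the main scaling and bta-miR-125b of chromosome 1 lay 2.18 above it, while bta-miR-10b differed from it by -0.77, with 2.02, 2.13 and -0.80 under the total over all loci.

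**Figure D3:**
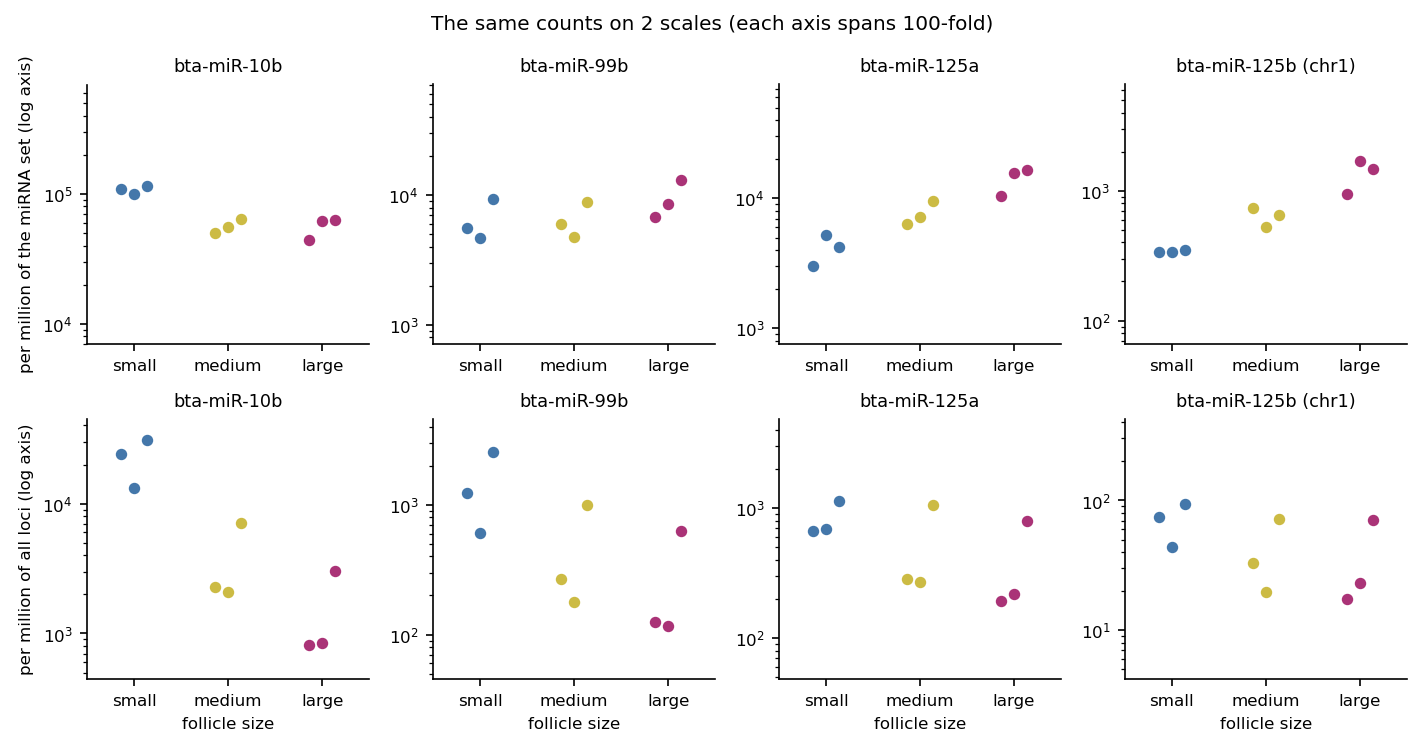
Values per library of 4 members on both scales (log vertical axes, each spanning a 100-fold range), as TMM-scaled CPM over the known and homologous miRNA loci in the upper row and CPM over all deposited loci in the lower row. bta-miR-125a and bta-miR-125b rise with follicle size in the upper row and overlap between small and large in the lower row, and the mean of bta-miR-10b is lowest in large follicle EVs in the lower row, where large 12 lies above medium 5 and medium 6.

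Ratios of 2 loci within a library do not depend on any scaling, and 12 such ratios were taken, namely the arms of 5 hairpins, the cluster neighbours and bta-miR-10b over bta-miR-10a. Each was tested for a trend from small to large with an exact permutation test over every arrangement of the 9 libraries, two-sided, on log2 counts with 0.5 added, where the smallest p is 0.00119. The 3p arms of miR-10b, miR-125a and miR-125b are listed under goat names (chi-miR) and that of miR-99b under a rat name (rno-miR), since they were recognised by homology, and they lie at the same hairpins as the members.

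The 5p arms of the miR-125a and miR-125b hairpins gained on their own 3p arms. For each read of chi-miR-125a-3p there were 19.3, 26.0 and 19.2 reads of bta-miR-125a in small, 49.8, 50.8 and 43.4 in medium and 81.8, 222 and 83.9 in large follicle EVs. No size overlapped another, and the mean log2 ratio was 2.40 higher in large than in small follicle EVs, a 5.27-fold difference (exact permutation p = 0.00119, 0.00476 after adjustment over the 12 ratios). The value of large 11 rests on 10 reads of the 3p arm, and without large 11 the difference was still past the threshold, as it was without any other library (1.94 to 2.64).

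For miR-125b the reads of the 5p arm can belong to either hairpin, so the ratio was taken with the chromosome 1 locus alone and with both loci. For each read of chi-miR-125b-3p, bta-miR-125b of chromosome 1 had 0.250, 0.236 and 0.154 reads in small, 0.564, 0.379 and 0.318 in medium and 0.691, 1.20 and 0.614 in large follicle EVs. With both bta-miR-125b loci summed over both 3p loci, the 3p arm had more reads in all small follicle libraries, in medium 6 and in medium 8. The 5p arm had more in medium 5 (783 against 713 reads), large 10 (335 against 250), large 11 (479 against 200) and large 12 (1709 against 1383). For the chromosome 1 locus, small follicle EVs had a mean log2 ratio of -2.26 ± 0.38, medium ones -1.29 ± 0.42 and large ones -0.33 ± 0.51 (SD, n = 3 each), a 3.82-fold difference between large and small (exact permutation p = 0.00119, 0.00476 after adjustment), and it passed the threshold without any single library. With both loci summed the log2 difference was 1.95.

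The 3p arms themselves did not pass the test between large and small follicle EVs. chi-miR-125b-3p had normalized counts of 1351, 1422 and 2276 in small and 1372, 1407 and 2390 in large follicle EVs, a log2 fold change of 0.04 with a 95% interval from -0.74 to 0.82, and chi-miR-125a-3p differed by -0.50 with an interval from -1.42 to 0.43. The arms of the other hairpins had no detectable trend. For each read of rno-miR-99b-3p there were 54.3, 66.2 and 72.6 reads of bta-miR-99b in small and 48.8, 62.7 and 73.6 in large follicle EVs (exact permutation p = 0.75). bta-miR-99a-5p over bta-miR-99a-3p had a log2 difference of 0.52 (exact permutation p = 0.138) and bta-miR-10b over chi-miR-10b-3p one of 1.31 (exact permutation p = 0.162), where the 3p arm had only 1, 0 and 20 reads in the large follicle libraries. Whether the miR-125a and miR-125b ratios differ in trend from these was not tested.

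In each cluster the counts at the miR-125a or miR-125b locus also gained on those of its miR-99 or miR-100 neighbour. Reads at the bta-miR-125b loci can belong to either gene. The chromosome 1 and chromosome 15 ratios are therefore not independent, and they do not tell which bta-miR-125b gene the gain belongs to. On chromosome 1, bta-miR-125b had 0.332, 0.224 and 0.253 reads for each read of bta-miR-99a-5p in small, 0.669, 0.368 and 0.458 in medium and 0.697, 0.710 and 0.729 in large follicle EVs, with no overlap between sizes and a 2.67-fold difference between large and small (exact permutation p = 0.00119, 0.00476 after adjustment). On chromosome 15, bta-miR-125b had 1.66, 1.86 and 1.20 reads per read of bta-miR-100 in small, 4.67, 2.87 and 2.77 in medium and 2.84, 5.63 and 2.97 in large follicle EVs, so that medium and large overlapped and both lay above small (2.33-fold, exact permutation p = 0.0167, 0.04 after adjustment). On chromosome 18, bta-miR-125a had 0.535, 1.14 and 0.451 reads per read of bta-miR-99b in small, 1.06, 1.51 and 1.07 in medium and 1.54, 1.86 and 1.28 in large follicle EVs. Large and small did not overlap there, while small 2 lay above medium 5 and medium 8 (2.37-fold, exact permutation p = 0.0107, 0.0321 after adjustment).

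The chromosome 1 ratio passed the threshold without any single library. The chromosome 15 and chromosome 18 ratios passed in 2 of 9 such fits each, with log2 differences from 0.91 to 1.40 and from 0.98 to 1.65 and adjusted p-values up to 0.133 and 0.111. The let-7 loci of the same clusters showed no detectable trend against the miR-99 and miR-100 loci. The log2 difference was -1.29 for let-7c over bta-miR-99a-5p (exact permutation p = 0.0917), 0.01 for let-7a-5p over bta-miR-100 (exact permutation p = 0.986) and 0.29 for let-7e over bta-miR-99b (exact permutation p = 0.579). Large and small did not overlap for let-7c, with 4.61, 4.06 and 7.60 against 23.1, 7.88 and 11.4 reads per read of bta-miR-99a-5p. Medium (15.4, 3.63 and 12.4) overlapped both. bta-miR-10b over bta-miR-10a differed by -0.60 on the log2 scale (exact permutation p = 0.255).

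**Figure D4:**
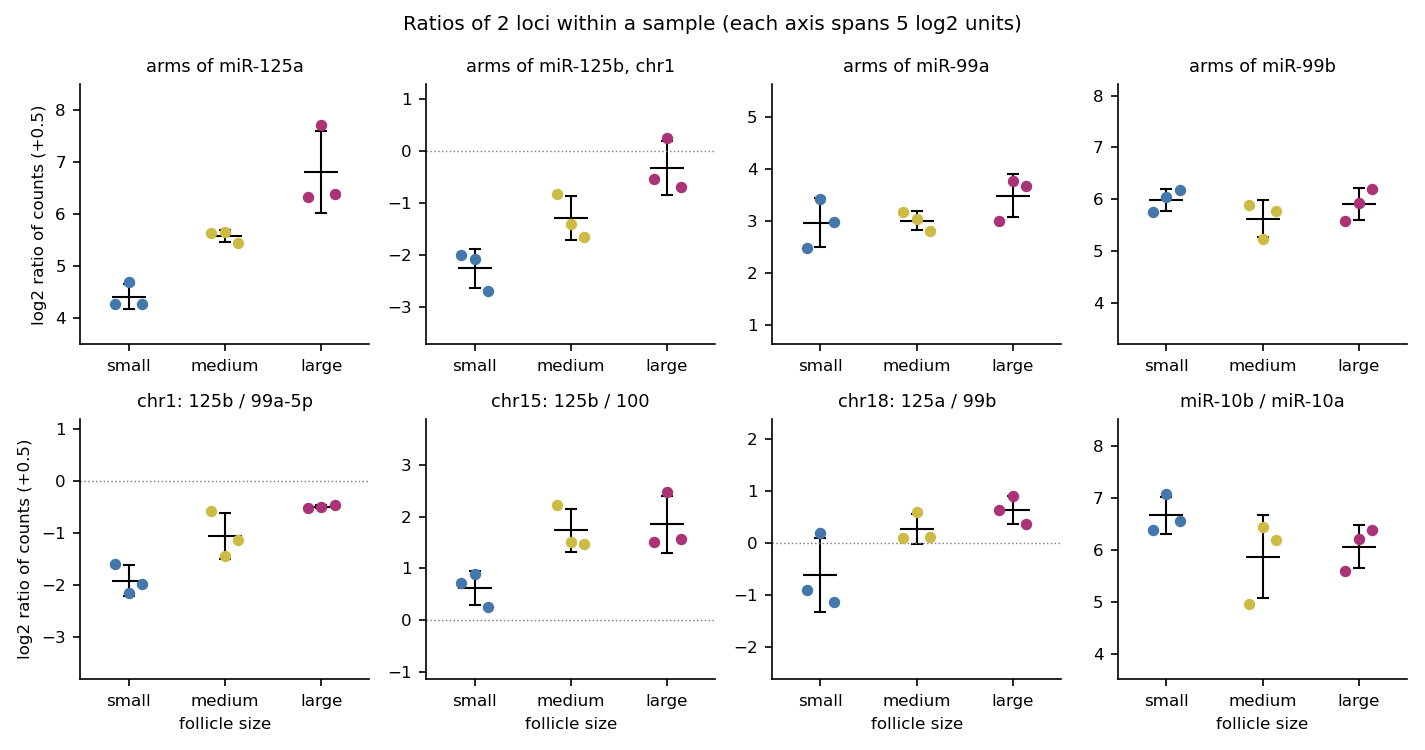
Log2 ratio of the counts of 2 loci in the same library (0.5 added to each, each vertical axis spanning 5 log2 units) against follicle size, with the arms of 4 hairpins, the 3 cluster pairs and bta-miR-10b over bta-miR-10a. The ratios of the miR-125a arms, the miR-125b arms and bta-miR-125b over bta-miR-99a-5p rise from size to size without overlap, and those of the miR-99a and miR-99b arms overlap.

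The balance between members of the families shifted in the same libraries. bta-miR-10b made up 86.8% to 90.1% of all member counts in small, 74.1% to 78.4% in medium and 63.6% to 66.7% in large follicle EVs. The other 8 members made up 1.14% to 1.75% of the counts on the list in small, 1.53% to 2.23% in medium and 2.55% to 3.09% in large follicle EVs. No overlap between small and large was seen in either share.

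Loci with a pattern like that of a member were taken from the list by Pearson's r of log2 normalized counts over the 9 libraries, as a description in which follicle size is shared. For bta-miR-10b they were chi-miR-335-3p (r = 0.92), chi-miR-145-3p (r = 0.91) and bta-miR-1388-5p (r = 0.90). For bta-miR-125a they were bta-miR-204 (r = 0.99), bta-miR-30d (r = 0.99) and bta-miR-30f (r = 0.98), and for bta-miR-125b of chromosome 1 bta-miR-30f (r = 0.97), efu-miR-181f (r = 0.96) and bta-miR-339a (r = 0.95).

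Blood cell miRNA also moved with follicle size. The list holds 4 such loci, bta-miR-150 and bta-miR-142-5p of white blood cells and bta-miR-451 and bta-miR-486 of red blood cells, and no locus of miR-144 or miR-223. Their summed normalized counts were 490 to 2492 in small, 1534 to 2932 in medium and 7144 to 15499 in large follicle EVs. Most of the sum in large follicle EVs was bta-miR-486, which alone had 6547 to 12641 there. The edgeR quasi-likelihood test called 3 of 4 of these loci higher in large than in small, against 17.7% of the list. bta-miR-451 had an FDR of 0.0623 in that test. The study listed a locus only if its mean read count reached a minimum in any of the sizes. Raw counts of bta-miR-150 summed to 60 (small), 83 (medium) and 530 (large), and it reached that minimum through the large libraries only. Its call is therefore not independent of how the list was made. bta-miR-142-5p, bta-miR-451 and bta-miR-486 also reached the minimum in the small libraries. The part of blood cell miRNA in the rise of bta-miR-125a and bta-miR-125b was not tested.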

How the data were processed

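Per the labels, small RNA of EVs from 9 pools of bovine follicular fluid was sequenced as single reads of TruSeq small RNA libraries. The authors removed adapters, mapped reads with BWA 0.7.5a to UMD3.1, merged reads of all samples into loci, and deposited raw counts per locus without normalization. Treatment of reads that map to several places is not given in the sources used here. Counts were used as deposited. The 249 known and homologous miRNA loci of the study's list were scaled by TMM and tested with the quasi-likelihood test of edgeR 4.0.16 (R 4.3.3) in 1 fit of 3 sizes, with Benjamini-Hochberg adjustment over the 249 loci and FDR under 0.05. Ratios were tested in Python 3.11.15 with numpy 2.4.6, and the chi-square of the bta-miR-125b loci was computed with scipy 1.17.1. All members, the partner arms, clustered let-7 loci, and the 3 loci most like a member were named. The members and lists were chosen with earlier results of these data known. Alternatives were other tests (exact test, DESeq2 1.42.0), scalings, filters, thresholds, a pseudocount of 1 read, summed bta-miR-125b loci, 2-group fits and leaving out each library. A fit over all deposited loci and the summed bta-miR-125b arms were added after the data were seen. The procedure was tested on simulated data. Mature sequences were not used here.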

Additional observations from a re-analysis of the deposited data

Results flagged for a closer look

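A deposited locus outside the known and predicted miRNA of the study had reads at the second miR-125b hairpin. It lies on chromosome 15 from 33298827 to 33298848 (UMD3.1, minus strand), 18 bases from bta-miR-125b of that chromosome, on the side where the other arm lies at the chromosome 1 hairpin. It is 22 bases long and had 163 counts over the 9 libraries, 27, 14 and 52 in small, 4, 4 and 24 in medium and 4, 2 and 32 in large follicle EVs, against 17831 for chi-miR-125b-3p of chromosome 1. It was singled out because it stands above the 3 counts that a count of 0 allows. Its counts entered the comparison above of both bta-miR-125b loci over both 3p loci, and no other. The highest count of each size was in small 4, medium 8 and large 12. As given above, with these counts added to chi-miR-125b-3p and both bta-miR-125b loci summed, the log2 ratio of the arms was 1.95 higher in large than in small follicle EVs (exact permutation test over 9 libraries, two-sided, 0.00476 after adjustment over 12 ratios).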

How the results depend on the processing

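Members called between large and small follicle EVs numbered 4 in every setting within the list, 3 as higher and 1 as lower in large. Without a library they numbered 3 to 4, with 3 as higher. They numbered 5, 6 and 8 under the 3 scalings over more loci and 4 in the fit over all deposited loci. These were all lower in large. In that fit they were bta-miR-10a, bta-miR-10b, bta-miR-99a-5p and bta-miR-99a-3p, whereas bta-miR-125a (FDR 0.155) and the bta-miR-125b loci (FDR 0.130 and 0.163) were not called. That fit called 173 of the 249 loci of the list, all lower in large. For medium versus small there were 0 members called (0 to 0 without a library), 4 by DESeq2, 2 by TMM over all miRNA loci, 1 by the total of all loci and 2 by TMM over all loci. The list had 0 (0 to 13 without a library), 28, 101, 59 and 109 of its 249 loci called in these settings. The 101, 59 and 109 were all lower in medium. For large versus medium there were 2 members called (0 to 2 without a library), 4 at an FDR under 0.1, 4 by DESeq2, 1 by the total of the list, and 0 by that total without bta-miR-10b, by the 3 scalings over more loci, in the 2-group fit and in the fit over all loci. The list had 26 loci called (0 to 24 without a library), 65 at an FDR under 0.1, 63 by DESeq2 and 30 by its total. It had 28 by that total without bta-miR-10b, 43 by TMM over all miRNA loci and 2 in the 2-group fit. By the total of all loci, by TMM over all loci and in the fit over all loci it had 0. Directions reversed under the scalings over more loci, given here in the order TMM over all miRNA loci, predicted ones included, total of all loci and TMM over all loci, and for large versus small then the fit over all loci. For large versus small the log2 fold changes were -2.88, -2.36, -4.00 and -4.02 for bta-miR-99a-5p, -2.80, -2.33, -3.99 and -4.01 for bta-miR-99b, -2.52, -2.04, -3.69 and -3.71 for bta-miR-100, -1.58, -1.04, -2.66 and -2.68 for bta-miR-125a, and -1.43, -0.94, -2.59 and -2.61 and -1.36, -0.86, -2.52 and -2.53 for bta-miR-125b of chromosomes 1 and 15. For medium versus small they were -0.82, -0.63 and -1.55 for bta-miR-125a, -0.95, -0.78 and -1.80 for bta-miR-125b of chromosome 1 and -0.97, -0.80 and -1.80 for that of chromosome 15. For large versus medium they were -1.08, -0.74 and -1.40 for bta-miR-99a-5p, -1.06, -0.72 and -1.42 for bta-miR-99b, -0.48, -0.13 and -0.81 for bta-miR-100, -0.76, -0.41 and -1.10 for bta-miR-125a, -0.48, -0.16 and -0.79 for bta-miR-125b of chromosome 1 and -0.38, -0.064 and -0.72 for that of chromosome 15. These scalings differ from the main one in the loci they divide by. Without a library, bta-miR-125b over bta-miR-100 ran from 0.91 to 1.40 and bta-miR-125a over bta-miR-99b from 0.98 to 1.65 on the log2 scale. A value within 1 standard error of 0 was taken to have no direction to reverse. No paired analysis was possible because the sizes share no replicate numbers and the labels tie no pool to a collection. The large follicle libraries limit the depth, and bta-miR-100 had 43 to 296 reads there.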
